A study of Mus musculus with 4 samples.

Results

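Killer lymphocytes, the natural killer (NK) cells and cytotoxic T cells, take up their program under a small set of transcription factors, and 8 of these are described here across 4 bone marrow samples: Eomes, Tbx21, Id2, Nfil3, Ikzf2, Prdm1, Zeb2 and Runx3. They were taken by name. Every probe set annotated to exactly 1 of them was used, which gave 18 probe sets, and the 8 genes stand among 18193 genes that had such a probe set. All 8 genes exceeded the floor for a measured signal, 188.6 (the median of all signals), on at least 1 array, as did 16 of their 18 probe sets. Each sample is 1 array without a replicate, so a difference between 2 arrays has no replicate error.

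The mice were C57BL6. Hematopoietic stem or precursor cells were given genes that join MLL, a histone methyltransferase, to AF4, a transcription elongation factor, and unsorted marrow was taken months later from animals moribund with leukemia. The sample labelled mixed lineage leukemia came from cells given both AF4-MLL and MLL-AF4. The samples labelled proB acute lymphoblastic leukemia (proB ALL) and B/T biphenotypic acute leukemia (BAL) came from cells given AF4-MLL alone. Normal bone marrow was the control. Immunophenotypes were read by flow cytometry. The sources used here do not state ages, the vector's promoter or whether animals were pooled.

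In the known program, Nfil3 is needed early for NK cells and other innate lymphoid cells, and Id2 binds E proteins such as Tcf3 and Tcf12 and keeps them from DNA. The T-box factors Eomes and Tbx21 (T-bet) then direct effector genes such as granzymes and interferon gamma, while Runx3, Prdm1 (Blimp-1) and Zeb2 act with them in maturation and effector function. Ikzf2 (Helios) is an Ikaros family factor best known from regulatory and immature T cells. Several of these genes are active outside killer cells too, Prdm1 in plasma cells and Zeb2, Id2 and Nfil3 in myeloid cells.

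The array labelled proB ALL went against its label in its B-cell markers. All 6 tested B-cell markers were at least 2-fold lower there than in normal marrow, with Vpreb1 at a signal of 30.1 and Ebf1 at 128, both below the floor. The summed signal of the B-cell list was 4329, against 31318 in normal marrow. In contrast, 7 of 7 tested NK markers exceeded normal marrow 2-fold or more, with a summed signal of 92746 for that list against 3625. Itga2, also on that list, lay below the floor on all arrays (166 in proB ALL) and was not tested. Gzmb was tested only because it exceeded the floor on the proB ALL array. Of the T-cell markers, 4 of 10 were higher and 2 lower. Parts of the T-cell receptor complex were split: Cd3d had 12582 against 1002, Cd3g 3290 against 632 and Cd247 3788 against 216, while Cd3e had 32.3, below the floor, against 372. For the B/T BAL array, 10 of 10 T-cell markers were higher and 6 of 6 B-cell markers lower than in normal marrow. The latter went against the B part of its label, with a summed signal of 1302 for the B-cell list. In mixed lineage leukemia 4 of the 6 B-cell markers were lower, with a sum of 8150, so low B-cell markers were not particular to proB ALL. Red cell precursor markers summed to between 1045 and 2892 in the leukemias and to 156865 in normal marrow. In such bulk samples a difference in the number of cells of a type and a difference in RNA per cell cannot be told apart. Array quality differed as well: between 46.3% and 57.4% of probe sets lay above the floor, highest on the mixed lineage array, and the ratio of 3' to 5' Actb signal ran from 1.87 in normal marrow to 4.72 in B/T BAL; the part of either in the values given here was not tested.

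The members were high on different arrays. On the proB ALL array 4 of the 8 (Eomes, Tbx21, Runx3 and Prdm1) had signals at least 2-fold above each of the other 3 arrays, which held for 3.00% of all 14012 genes tested. Ikzf2 was the 1 member that stood out in the same way on the B/T BAL array (5.02% of genes tested), and Zeb2, by its representative probe set but not by all, the 1 on the mixed lineage array (11.5%). In normal marrow 0 members did (4.45%). A difference counts as 2-fold when log2(signal + 51.4) differs by at least 1, where 51.4, the 25th percentile of all signals, was added to damp noise in dim probe sets. Since the 8 genes were named with results of these arrays known, such counts describe them and are no test.

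**Figure D1:**
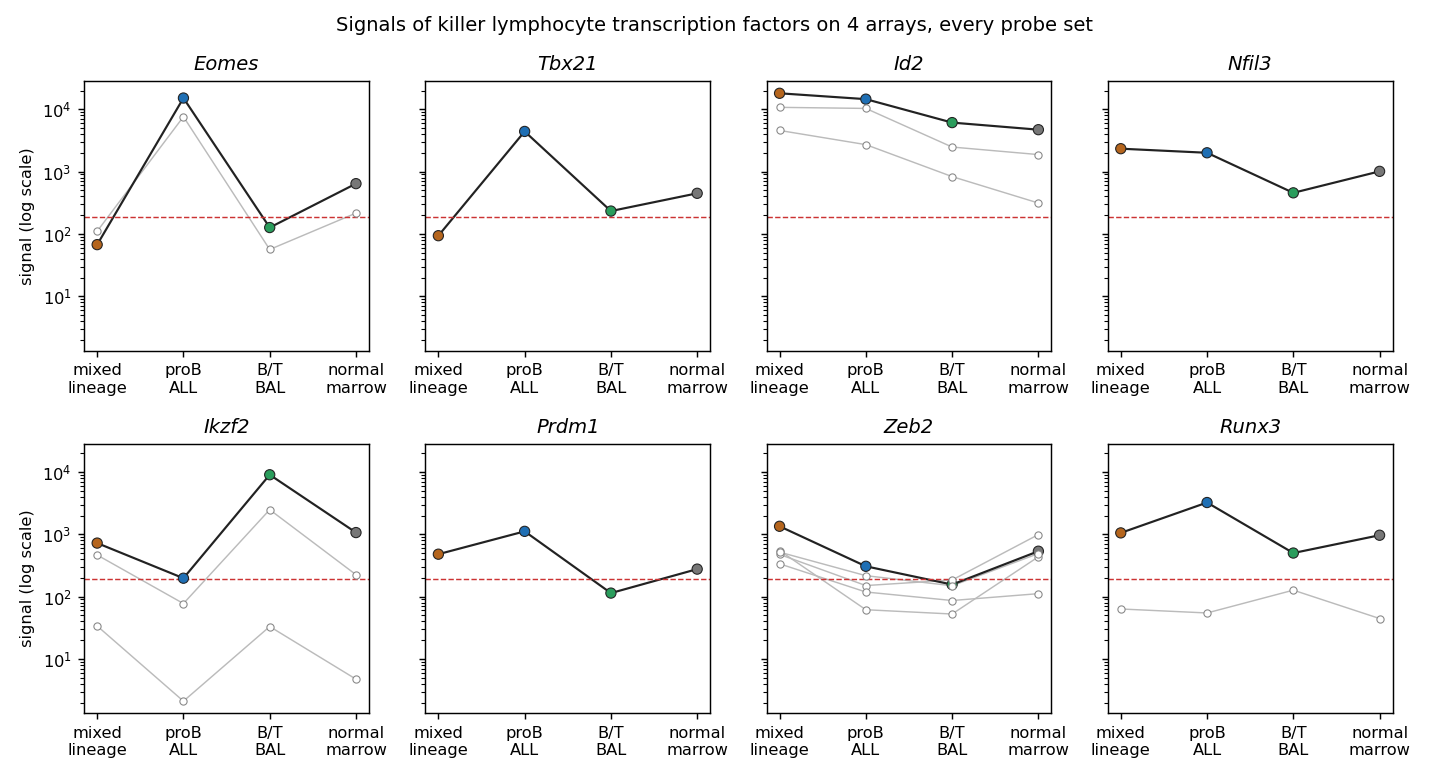
Signals (vertical log axis) of the 8 factors on the 4 arrays (horizontal axis), 1 panel per gene. Filled points show the probe set that stands for the gene, open points the other probe sets; lines join the values of 1 probe set, each point is 1 array without replicate, and the dashed line is the floor of 188.6. Eomes, Tbx21, Prdm1 and Runx3 peak on the proB ALL array and Ikzf2 on the B/T BAL array.

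Both T-box factors were far higher in proB ALL than on any other array. Eomes, which drives NK cell and cytotoxic memory T-cell programs, had signals of 67.4 with mixed lineage leukemia, 15148 with proB ALL, 127 with B/T BAL and 641 with normal marrow. It was thus high on 1 array only, and both other leukemias lay below the floor. The proB ALL signal was 23.6-fold that of normal marrow and at least 80.3-fold that of the other leukemias. A second Eomes probe set had 110, 7600, 56.3 and 216 on the same arrays, and so the same highest array, with a log2 difference between proB ALL and normal marrow of 4.84 against 4.46 by the first. Tbx21, its relative, which directs interferon gamma and the late steps of NK maturation, had 93.7, 4410, 233 and 449 in the same order of arrays, which is kept for each set of 4 signals that follows. As for Eomes, proB ALL was highest and normal marrow next. For Tbx21 the mixed lineage signal alone lay below the floor. Its proB ALL signal was 9.83-fold that of normal marrow and 18.9-fold that of B/T BAL. B/T BAL lay less than 2-fold below normal marrow for Tbx21, with a log2 difference of -0.81. Other T-box genes gave no such signal: Tbr1, Tbx1, Tbx2 and Tbx3 lay below the floor on all 4 arrays. NK markers were high on the same array as Eomes and Tbx21, by the sums given above, and their part in these signals was not tested.

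The DNA just upstream of both T-box genes is shown because they peaked on the same array. Sequences run 5' to 3' over the 250 bases before a RefSeq transcript start in build GRCm38.p6, at chr9:118477939-118478188 on the plus strand for Eomes and at chr11:97115332-97115581 on the minus strand for Tbx21. Capitals mark matches, on either strand, to CAGGTG (an E-box of the kind that ZEB proteins bind), TGTGGT (RUNX), TCACAC (T-box), TTCNNNGAA (STAT) or GNGAAAG (the core that Prdm1 binds).
Eomes: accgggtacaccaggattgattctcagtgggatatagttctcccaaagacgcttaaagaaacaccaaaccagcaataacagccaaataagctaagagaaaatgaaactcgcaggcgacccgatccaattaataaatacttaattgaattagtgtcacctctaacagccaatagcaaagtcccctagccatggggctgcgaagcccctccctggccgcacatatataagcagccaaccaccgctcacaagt
Tbx21: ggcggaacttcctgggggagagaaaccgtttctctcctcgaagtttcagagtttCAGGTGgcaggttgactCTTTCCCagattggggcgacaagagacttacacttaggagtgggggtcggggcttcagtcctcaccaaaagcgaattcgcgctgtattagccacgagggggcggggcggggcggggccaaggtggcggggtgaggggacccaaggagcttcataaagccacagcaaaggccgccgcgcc
The Eomes window held none of these letters, and none of the wider E-box CANNTG, of which CAGGTG is a part. The Tbx21 window held 1 CAGGTG, from 196 to 191 bases before the start, and 1 GNGAAAG match, from 179 to 173. Of 32851 such windows in the RefSeq table, 17.2% held CAGGTG, 19.4% GNGAAAG, 66.2% CANNTG, 14.0% TGTGGT, 12.3% TCACAC and 7.02% TTCNNNGAA. A match is a string of letters and not a bound site, and its absence from a window says nothing of the factor.

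Runx3 and Prdm1 were also highest on the proB ALL array, by smaller margins. Runx3, which silences Cd4 in cytotoxic T cells and takes part in NK development, had 1054 with mixed lineage leukemia, 3235 with proB ALL, 501 with B/T BAL and 967 with normal marrow. All 4 signals lay above the floor, and the proB ALL signal was 3.35-fold that of normal marrow and 6.46-fold that of B/T BAL. The other Runx3 probe set lay below the floor on every array, between 44.6 and 127. With the mean over both probe sets the log2 difference from normal marrow was 0.92 in place of 1.69, which is under 2-fold, and those from mixed lineage leukemia and B/T BAL were also under 2-fold, at -0.73 (mixed lineage leukemia minus proB ALL) and 0.91 (proB ALL minus B/T BAL). Prdm1, a repressor that acts in effector lymphocytes and plasma cells, had 480, 1116, 114 and 277 by its only probe set. ProB ALL was 4.03-fold above normal marrow, and B/T BAL was the 1 array below the floor. The log2 difference of Prdm1 between mixed lineage leukemia and proB ALL, -1.14, was -0.92 once arrays were scaled to 1 common 75th percentile and -0.96 when the 50th percentile was added. Of the 7 tested plasma cell markers 0 were at least 2-fold higher and 2 lower on the proB ALL array, with a summed signal of 51176 for the list against 46444 in normal marrow.

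The upstream windows of these genes follow, for the same reason and with the same marks: the distal start of Runx3, at chr4:135120395-135120644 on the plus strand, and a start of Prdm1 at chr10:44458749-44458998 on the minus strand.
Runx3: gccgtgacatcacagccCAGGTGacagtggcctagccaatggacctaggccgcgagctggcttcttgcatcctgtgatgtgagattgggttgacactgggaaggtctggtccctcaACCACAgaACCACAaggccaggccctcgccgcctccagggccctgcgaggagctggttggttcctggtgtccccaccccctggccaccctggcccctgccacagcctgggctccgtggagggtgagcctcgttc
Prdm1: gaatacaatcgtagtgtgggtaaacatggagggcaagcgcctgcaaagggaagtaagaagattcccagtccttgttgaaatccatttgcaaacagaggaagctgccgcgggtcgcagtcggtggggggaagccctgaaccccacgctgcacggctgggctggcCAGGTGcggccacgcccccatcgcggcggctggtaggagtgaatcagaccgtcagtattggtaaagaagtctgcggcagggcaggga
The distal Runx3 window held 2 RUNX matches close together, from 134 to 129 and from 126 to 121 bases before the start, and 1 CAGGTG from 233 to 228. The window of the other Runx3 start held 0 of the motifs. The Prdm1 window held 1 CAGGTG, from 87 to 82 bases before the start, and 1 further CANNTG match. None of the 4 windows shown held TCACAC or TTCNNNGAA. In all, 7 of the 8 members had a window in the RefSeq table; Ikzf2 had none.

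Id2 and Nfil3 were high on both the mixed lineage and the proB ALL arrays. Id2, the inhibitor of E proteins, had 18047 with mixed lineage leukemia, 14538 with proB ALL, 6113 with B/T BAL and 4705 with normal marrow. The first pair differed 1.24-fold, and B/T BAL and normal marrow 1.30-fold, so the arrays fell into a high and a low pair. Mixed lineage leukemia was 3.84-fold and proB ALL 3.09-fold above normal marrow. The other 2 Id2 probe sets kept this order of the arrays, with 10740, 10319, 2478 and 1875 by the one and 4575, 2710, 832 and 313 by the other. They differed in size: the log2 difference between B/T BAL and normal marrow was 0.37, 0.39 and 1.28 by the 3 probe sets, and the last of these was the only value past 2-fold. Nfil3, a bZIP repressor of early innate lymphocyte development, had 2332, 2005, 457 and 1010 by its only probe set. Mixed lineage leukemia was 2.31-fold above and B/T BAL 2.21-fold below normal marrow, and proB ALL, at 1.99-fold on the signals and 0.95 on the log2 scale, fell just short of the 2-fold line. When the 50th percentile of signals was added before taking logs, the log2 difference of B/T BAL was -0.89 and also fell short.

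The mixed lineage array, which held the highest Id2 and Nfil3 and, by the representative probe set, the highest Zeb2, also had higher monocyte marker signals. Of 8 monocyte markers 5 exceeded their normal marrow signal 2-fold or more and 0 lay that far below it, and their summed signal was 222764 against 109132, with 39517 in B/T BAL and 43230 in proB ALL. The part of monocytes in the values of the 3 genes was not tested. On the proB ALL array, where Id2 was also high, 6 of the 8 monocyte markers were lower and 1 higher than in normal marrow.

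Zeb2, a repressor that acts with T-bet in the last steps of killer cell maturation and is also active in monocytes, was measured by 5 probe sets that did not agree. The representative one had 1345 with mixed lineage leukemia, 307 with proB ALL, 156 with B/T BAL and 536 with normal marrow. By it mixed lineage leukemia was 2.51-fold above normal marrow. Another probe set had 476, 151, 185 and 990, with normal marrow highest, and the log2 difference between mixed lineage leukemia and normal marrow ran from -0.98 to 1.25 over the 5, with a value of 0.38 for their mean. The direction of this difference is therefore not settled by the array. Where they did agree was in the other leukemias: 4 of 5 probe sets gave B/T BAL a lower signal than normal marrow, with log2 differences from -2.23 to -1.43, and the same 4 gave proB ALL a lower one, from -2.37 to -0.71. The remaining probe set lay below the floor on all 3 of these arrays and gives no order. All 5 also gave a lower signal in proB ALL than in mixed lineage leukemia, by 1.08 to 2.41 on the log2 scale. So Zeb2 was not among the members that were high in proB ALL, where Tbx21 was.

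Ikzf2 was high in B/T BAL and low in proB ALL, the reverse of the T-box genes on those arrays. It had 723 with mixed lineage leukemia, 198 with proB ALL, 9026 with B/T BAL and 1067 with normal marrow. It was high on the B/T BAL array, 8.46-fold above normal marrow, and on the proB ALL array it was close to the floor and 5.40-fold below normal marrow. Between these leukemias the gap was 45.7-fold. A second probe set had 466, 77.5, 2485 and 225, again with B/T BAL highest and proB ALL lowest; it put mixed lineage leukemia 0.90 above normal marrow on the log2 scale, where the first put it 0.53 below. The remaining one lay below the floor on all arrays, from 2.11 to 33.8. T-cell markers were high on the same array, all 10 of them, with a summed signal of 113900 against 3596 in normal marrow. Stromal markers also summed to 75408 there against 8478, mostly through Col1a2 (38649) and Pdgfrb (30356). Of 7 stromal markers 3 were at least 2-fold higher and 1 lower, with a median log2 difference of 0.06, beside 0.05 over all genes tested. The part of either in the Ikzf2 signal was not tested.

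**Figure D2:**
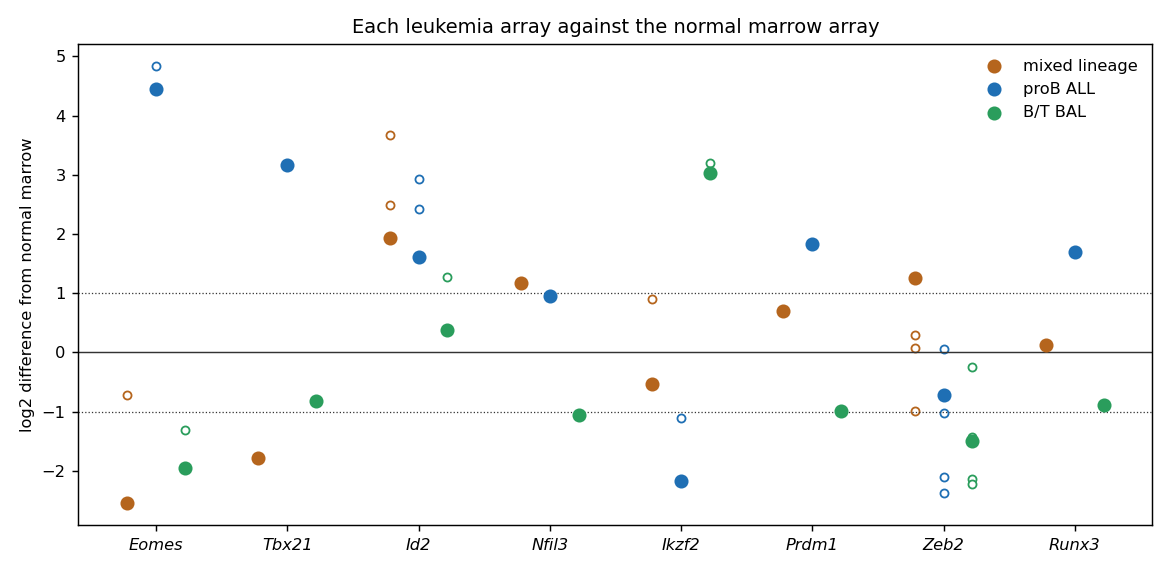
Difference of each leukemia array from the normal marrow array on the log2(signal + 51.4) scale (vertical axis) for the 8 factors. Filled points are the representative probe sets, open points the other probe sets that exceeded the floor on at least 1 array; dotted lines mark 2-fold. Eomes reaches 4.46 in proB ALL and -2.54 in mixed lineage leukemia, and the 5 Zeb2 probe sets spread across 0 in mixed lineage leukemia.

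Counted over the members, proB ALL against normal marrow had 5 of 8 at least 2-fold higher (Eomes, Tbx21, Id2, Prdm1 and Runx3) and 1 lower (Ikzf2), where 11.3% and 18.7% of all genes tested were higher and lower. Mixed lineage leukemia had 3 higher (Id2, Nfil3 and Zeb2) and 2 lower (Eomes and Tbx21), against 18.8% and 15.2% of genes. B/T BAL had 1 higher (Ikzf2) and 3 lower (Eomes, Nfil3 and Zeb2), against 15.4% and 17.7%. The median log2 difference of the 8 was 1.65 for proB ALL, 0.41 for mixed lineage leukemia and -0.93 for B/T BAL, beside -0.11, 0.08 and 0.05 over all genes tested. These 3 comparisons share the normal array. Some calls were unsteady. By its second probe set Eomes differed by -0.72 in mixed lineage leukemia, short of 2-fold, while the mean over its probe sets gave -1.63. With the mean over probe sets Zeb2 lost its call in mixed lineage leukemia (0.38 in place of 1.25), which left 2 higher, and Runx3 lost its call in proB ALL (0.92 in place of 1.69), which left 4. In B/T BAL, where Prdm1 lay below the floor, its difference of -0.99 ranged from -1.17 to -0.55 over the alternatives and passed as lower under 3 of them.

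The leukemias compared next carried the same fusion, AF4-MLL alone. ProB ALL exceeded B/T BAL at least 2-fold in 6 of 8 (all but Ikzf2 and Zeb2), where 10.5% of genes did, and lay below it in 1, Ikzf2, where 15.9% of genes did. The median difference was 2.30 on the log2 scale, beside -0.17 over all genes. Mixed lineage leukemia against proB ALL had 2 members higher (Ikzf2 and Zeb2; 27.3% of genes) and 4 lower (Eomes, Tbx21, Prdm1 and Runx3; 15.7%). Mixed lineage leukemia against B/T BAL had 5 higher (Id2, Nfil3, Prdm1, Zeb2 and Runx3; 26.3%) and 1 lower (Ikzf2; 21.2%). Runx3 passed that last comparison only just, with 1.001 on the log2 scale, and with the mean over probe sets it had 0.18.

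No member passed a test of leukemia as 1 group. In limma's moderated test of the 3 leukemias against the normal array, with Benjamini-Hochberg adjustment over 14012 genes, 0 of 8 members and 0.00% of all genes passed an adjusted p of 0.05. At an unadjusted p under 0.05 limma gave 413 genes, 2.95% of those tested, and again 0 members. Id2 came closest, with a log2 difference of 1.31 (SE 0.75; limma adjusted p = 0.9999), higher in 3 of 3 leukemias. Eomes had -0.02 (SE 2.42; limma adjusted p = 0.9999), a mean of 1 leukemia far above and 2 below normal marrow. The test takes its spread from 3 leukemias of different immunophenotype, with 2 residual degrees of freedom. It moderates this spread by that of all genes tested, which adds 5.58 prior degrees of freedom. Without proB ALL the mean difference of Eomes was -2.25 and that of Tbx21 -1.30.

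Relatives and partners of the members were followed from a fixed list, of which 21 genes were tested. On the proB ALL array 3 were at least 2-fold higher and 3 lower, with a median log2 difference of 0.31. Of all genes tested, 11.3% were higher and 18.7% lower there, with a median of -0.11. The shares were 18.8% and 15.2% in mixed lineage leukemia (median 0.08), and 15.4% and 17.7% in B/T BAL (median 0.05). These values stand beside the marker counts above and the lists below as well. In proB ALL Tcf12 and Tcf4, E proteins that Id2 can bind, were higher by 1.19 and 1.26, as was the Ikaros family gene Ikzf3 by 1.83. Hlf, a bZIP factor, differed by -2.68 in proB ALL, where its signal of 39.6 lay below the floor. Other Id genes did not follow Id2 across all 4 arrays. Id1 had 6072 with mixed lineage leukemia, 186 with proB ALL, 809 with B/T BAL and 1266 with normal marrow, and Id3 had 157, 224, 2515 and 479. Like Id2, Id1 was highest in mixed lineage leukemia, but proB ALL, high for Id2, had the lowest Id1 of the 4 arrays. B/T BAL had the highest Id3. The E protein genes Tcf3 and Tcf12 were highest in B/T BAL, with 4641 and 19945 against 1635 and 4385 in normal marrow. In all, 8 list genes were higher and 2 lower in B/T BAL, with a median of 0.50. In mixed lineage leukemia 3 were higher and 6 lower, with a median of -0.04. The 3 higher were Prdm16, a relative of Prdm1, by 2.50, Id1 by 2.22 and Ikzf4, a relative of Ikzf2, by 2.15. The normal marrow signals of Prdm16 (18.8) and Ikzf4 (77.6) lay below the floor, so the sizes of their differences are not measured exactly. Runx1 and Cbfb, the latter the shared partner of Runx proteins, stayed within 2-fold of normal marrow in proB ALL, where Runx3 was high.

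Of 22 other tested regulators of killer and innate lymphocytes, 10 were at least 2-fold higher and 1 lower on the proB ALL array, with a median of 0.69. Stat4, which carries the interleukin 12 signal, had 8073 in proB ALL, against 1744 for mixed lineage leukemia, 227 for B/T BAL and 1234 for normal marrow. It was thus highest where Tbx21 was. Gata3 and Lef1 were higher there by 2.58 and 2.14 on the log2 scale, though the normal marrow signal of Gata3, 29.3, lay below the floor. Tox, a factor of NK and T-cell development, had 999 with proB ALL and 1347 with B/T BAL, against 351 for mixed lineage leukemia and 124, below the floor, for normal marrow. B/T BAL had 10 higher and 4 lower, with a median of 0.55, led by T-cell factors: Gata3 had 2567 against 29.3 in normal marrow, Bcl11b 9352 against 340, and Lef1 16719 against 687. In proB ALL Bcl11b, which fixes T-cell identity, had 231. Mixed lineage leukemia had 2 higher and 5 lower, with a median of 0.33, and Lef1 differed by -1.43 there.

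Killer effector genes, several of them known targets of the T-box factors, were high where Eomes and Tbx21 were. Of 19 tested killer effector and receptor genes, 16 were at least 2-fold higher in proB ALL than in normal marrow and 2 lower, with a median of 3.97. Ncr1, Klrk1, Klrd1, Prf1 and Gzmb are also among the NK markers counted above, so the lists are not independent. The granzyme genes Gzmb and Gzmk had 26953 and 22046 against 178 and 219. The activating receptor gene Klrk1 had 19005 against 481. Fasl, the death ligand, had 5173 against 214. Il2rb, the receptor chain for interleukins 2 and 15, had 15343 against 814. Ifng had 575 against 6.48, below the floor. Like Gzmb, it exceeded the floor on the proB ALL array only and was tested through that array alone. The 2 lower genes, named after their values were seen, were Cx3cr1 and S1pr5, homing receptors of mature NK cells. Cx3cr1 had 126 in proB ALL, below the floor, against 716 in normal marrow, and S1pr5 had 2.89 against 190, just above it. In mixed lineage leukemia 2 list genes were higher and 6 lower (median -0.51). In B/T BAL 8 were lower (median -0.93), among them Gzmb with 57.8 against 178, both below the floor, and 1 was higher. That 1 was Gzma, with 52157 in B/T BAL and 54327 in proB ALL against 1556 in normal marrow. In B/T BAL Eomes lay below the floor and Tbx21, at 233, above it. The part of the T-box factors in the signals of Gzma and the other effector genes was not tested. The chemokine gene Ccl5 and the NK receptor gene Klrd1 were lower in B/T BAL, with 255 against 4432 and 65.8 against 1597. In mixed lineage leukemia Il2rb had 43.0, below the floor. Of 13 cytokine receptor and signalling genes that feed the factors, 8 were higher and 0 lower in proB ALL (median 1.25), among them Il18r1 with 23633 against 1604 and Il12rb1 with 1257 against 226. The 8 include Il12rb2, named after its values were seen, whose 168 in proB ALL and 20.3 in normal marrow both lay below the floor. The same list had 4 higher and 2 lower in B/T BAL (median -0.15), and 1 higher and 3 lower in mixed lineage leukemia (median -0.58).

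**Figure D3:**
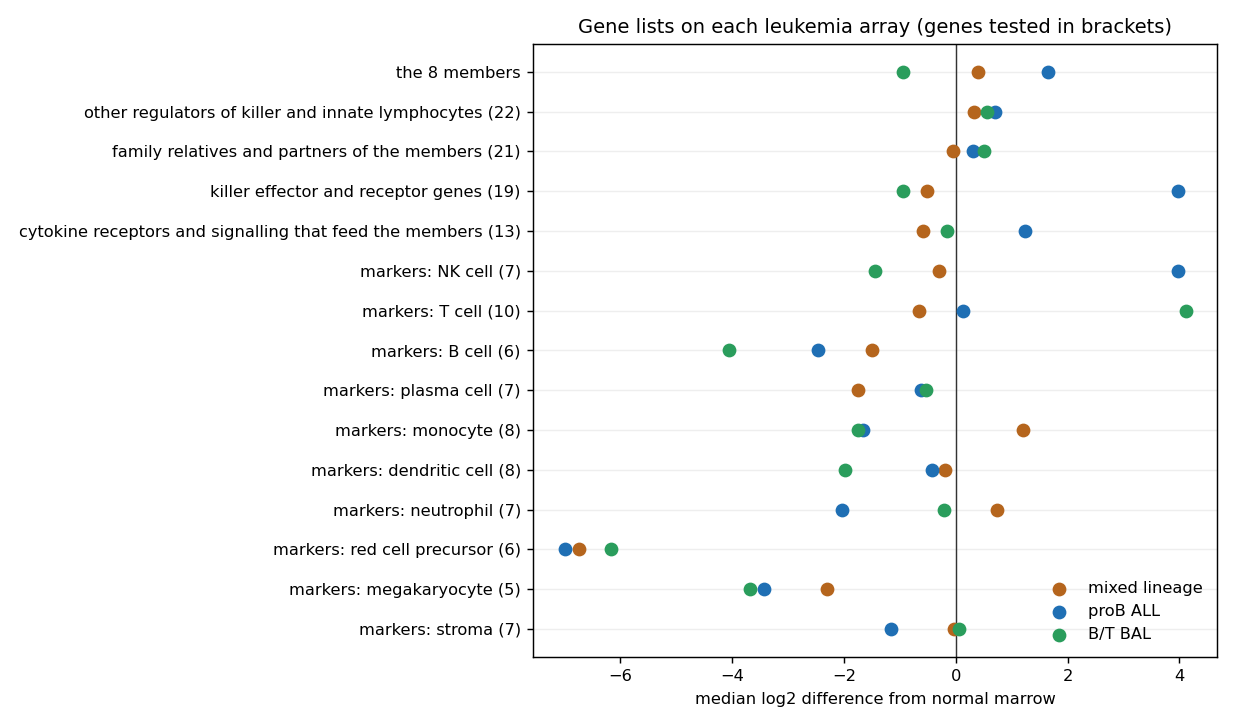
Median log2 difference from normal marrow (horizontal axis) of the 8 factors and of each gene list with at least 3 tested genes (rows, with the number tested), for the 3 leukemia arrays (colours). Killer effector genes and NK markers lie at 3.97 in proB ALL, T-cell markers at 4.12 in B/T BAL and monocyte markers at 1.197 in mixed lineage leukemia. The killer effector and NK marker lists share Ncr1, Klrk1, Klrd1, Prf1 and Gzmb, and the value of Ncr1 is the median of both in proB ALL.

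Each member was also set beside all other tested genes by the shape of its 4 values, as the root mean squared difference between log2 values after each gene's mean was removed. Nearest to Eomes were Fasl at 0.35, Clnk, an adaptor of immune receptor signalling, at 0.43, and Ctsw, a protease of killer cells, at 0.46. Nearest to Tbx21 were Gimap4 at 0.19, the NK receptor gene Klra8 at 0.29 and Rasgrf2 at 0.29. For Ikzf2 they were Gm10451 at 0.27, Tfpi at 0.29 and Pwwp3b at 0.38. Prdm1 had Cd84 at 0.07, A530088E08Rik at 0.07 and Herpud1 at 0.09, and Runx3 had H2-Q5 at 0.05, Stk32c at 0.08 and Arhgap26 at 0.13. Shpk, Serpinb1b and Vim were nearest to Id2 (0.03 to 0.07), Mirt1, Dhdh and Tmem30a to Nfil3 (0.02 to 0.10), and Zfp11, Alcam and Myo1f to Zeb2 (0.07 to 0.09). Of these neighbours, Shpk, Serpinb1b, Dhdh, Zfp11, Stk32c and Pwwp3b exceeded the floor on 1 array only. Their shape thus rests largely on signals that have no order. Within the 8, Prdm1 and Runx3 were the closest pair at 0.26, and Eomes and Tbx21 lay 0.93 apart, where Eomes had the wider range. Likeness over 4 arrays that share 1 platform is a description only.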

How the data were processed

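Biotin-labelled RNA from 4 mouse samples was measured on Affymetrix arrays, 1 array each. The deposited values are intensity values, 1 linear signal per probe set, which the authors made with the program MAS5, according to the submitters' processing notes. The sources used here give no version, settings or detection calls. Trimmed by 2% at each end, every array had a mean of 1000, so the arrays share a global scale. Of 45037 probe sets without controls, 34945 had 1 gene symbol in the platform annotation, 932 several and 9160 none; only the first were used. All 8 symbols matched the RefSeq gene table.

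Values were analysed as log2(signal + 51.4). For each gene the probe set of highest mean was taken, and 14012 of 18193 genes exceeded the floor of 188.6 on at least 1 array and were tested. A fold is a ratio of signals; where the dimmer side lay below the floor it was set to the floor and the fold is a lower bound. The 3 leukemias were set against normal marrow in limma 3.58.1 in R 4.3.3 (lmFit, eBayes with an intensity trend). The code was run on simulated arrays with less spread than most genes have here and large changes shared by all leukemias. That run bears on the code only and not on the power of the test in these data. P-values rest on the spread between the leukemias, moderated by that of all genes tested, and the lone normal array is assumed to vary like the leukemias. Single arrays were compared by 2-fold counts without a test. Such counts can include a gene that lay below the floor on both arrays compared. The members, lists and tests were chosen with earlier results of these data known. Named are all members, from each list at most the 4 genes that differed most on the array described (6 for relatives and effector genes), the 3 genes nearest in pattern to each member, and genes said to be named after their values were seen; list genes set beside a member for contrast (Id1, Id3, Tcf3, Runx1, Cbfb, other T-box genes, Ifng, Il2rb and Bcl11b in proB ALL) were also picked after their values were seen, as were the markers named. Alternatives covered the pseudocount, floor, normalization, choice of probe set, fold, eBayes and each leukemia left out.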

Additional observations from a re-analysis of the deposited data

Results flagged for a closer look

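Among the members, 5 lay at least 2-fold on opposite sides of normal marrow in different leukemias. The share of all genes tested that did so was not computed, so this count is a description only. These differences were not tested, since each leukemia is 1 array, and all rest on the same normal array. Eomes was higher in proB ALL and lower in mixed lineage leukemia, with 7.0 between them on the log2 scale, and Tbx21 did the same, with 4.94 between them. Both mixed lineage signals lay below the floor, so these sizes are not measured exactly; with such signals raised to the floor, mixed lineage leukemia minus proB ALL was -6.33 for Eomes and -4.55 for Tbx21. Ikzf2 was higher in B/T BAL and lower in proB ALL, 5.19 apart. Nfil3 and Zeb2 were higher in mixed lineage leukemia and lower in B/T BAL, 2.23 and 2.75 apart. The side of Zeb2 in mixed lineage leukemia depended on the probe set. By its second probe set Eomes lay short of 2-fold there, at -0.72 from normal marrow.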

How the results depend on the processing

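Of 432 member differences between arrays under alternatives, 398 moved by less than the median SD between probe sets of a gene (0.46 to 0.61 on the log2 scale over the 6 comparisons), 34 by more, and 0 of those past 2-fold changed sign. The 398 include differences that could not move. Alternatives of the floor filter change only which genes are tested. The mean over probe sets leaves a gene with 1 probe set as it was, and leaving out suffixed probe sets could move Id2 only. Of 158 counts, 138 stayed within 1.5 times the value given. At 4-fold in place of 2-fold, members higher and lower were 0 and 1 in mixed lineage leukemia against normal marrow, 2 members were higher in proB ALL, 0 were lower in B/T BAL, mixed lineage leukemia had 0 higher and 2 lower than proB ALL, and 2 were higher in it than in B/T BAL. At 1.5-fold, 2 were lower in proB ALL than in normal marrow, 6 lower in B/T BAL, and 2 lower in mixed lineage leukemia than in B/T BAL; the last was also 2 under quantile normalization and under a pseudocount at the 10th percentile, through Tbx21. Shares of all genes tested at 4-fold and 1.5-fold were not computed, so the counts at those folds show only the effect of the threshold. With the mean over probe sets 2 were lower in proB ALL, through Zeb2, and with only probe sets without a suffix 2 were higher in B/T BAL, through Id2. limma passed 15 genes as lower with a pseudocount at the 50th percentile and 23 with robust eBayes. Leaving out 1 leukemia gave 0 to 4 higher and 0 to 109 lower genes: 67 lower without proB ALL, 109 without B/T BAL and 0 without mixed lineage leukemia; the cause was not tested. In no setting did a member pass (limma adjusted p from 0.789 to 0.99998), and 11 of 104 limma differences of members had the other sign. No paired analysis was possible because each group has 1 array. No value has a replicate error, and signals below the floor have no order.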
